A study of Mus musculus with 154 samples.

Results

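Nqo1, Hmox1, Osgin1, Gclc, Gclm, Srxn1, Txnrd1, Cat and G6pdx are antioxidant genes that the transcription factor NRF2 is known to control. All 9 listed symbols were matched to Ensembl identifiers through GENCODE, and all 9 were present among the 13289 genes in the table of liver RNA-seq read counts. The genes were followed in 154 mice of 24 strains. The controls were 20 C57BL/6J mice (B6). The single chromosome substitution strains (CSSs) comprised 63 mice of 8 strains, each heterozygous for 1 chromosome from strain A/J on the B6 background. These were (B6 X B6.A3)F1, (B6 X B6.A6)F1, (B6 X B6.A14)F1, (B6 X B6.A17)F1, (B6.A4 X B6)F1, (B6.A5 X B6)F1, (B6.A8 X B6)F1 and (B6.A10 X B6)F1, with 7 mice of (B6.A5 X B6)F1 and 8 of each of the others. The double CSSs comprised 71 mice of 15 crosses with 3 to 6 mice each, heterozygous for 1 A/J chromosome from the sire (4, 5, 8 or 10) and 1 from the dam (3, 6, 14 or 17). Every mouse was 5 weeks old and was fasted overnight before liver was taken, and the study's methods describe all of them as male. A whole chromosome is exchanged in each strain, so an effect cannot be placed at a locus within it. A main effect below is the log2 fold change of a single CSS against B6. An interaction, written with the dam's chromosome first as in A14:A8, is the departure of a double CSS from the sum of its 2 main effects on the log2 scale.

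NRF2, encoded by Nfe2l2, is held in the cytoplasm and degraded through KEAP1 and the CUL3 ubiquitin ligase. When electrophiles or oxidants modify KEAP1, NRF2 escapes, pairs with a small MAF protein and binds antioxidant response elements, while BACH1 competes for the same elements at genes such as Hmox1. In liver this program supplies glutathione, thioredoxin reduction, NADPH and quinone detoxification.

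Stretches of the members' promoters that hold the core letters of an antioxidant response element are printed to show the kind of sequence NRF2 binds, and a match of letters is a description and not a binding site. RefSeq promoter windows (GRCm38.p6, 250 bases before and 50 after each start) were found for 7 members in 9 windows. The letters TGACNNNGC or TGAGNNNGC were searched on both strands in the bases before the start, and the form TGAGNNNGC can overlap the AP-1 letters TGAGTCA. At least 1 match was present in 5 members and in 25.7% of the 27025 genes with a window. The matched stretches are printed 5′ to 3′ on the strand of the gene, with the matched letters in capitals. The first is on chr2:152105469-152105497 and the second on chr2:152105356-152105384, both on the plus strand, followed by chr3:122245413-122245441 (plus), chr8:119437038-119437066 (plus), chr10:82859104-82859132 (plus) and chrX:74428919-74428947 (minus).
Srxn1: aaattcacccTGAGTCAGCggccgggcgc
Srxn1: tctactgagaGCCGACTCAtcctctctgg
Gclm: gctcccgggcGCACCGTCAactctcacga
Osgin1: aggggcccctGCTGACTCAcgcttatgaa
Txnrd1: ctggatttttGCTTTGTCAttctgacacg
G6pdx: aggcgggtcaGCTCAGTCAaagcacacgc
Only the first of these carries the letters in the orientation of the gene, 45 to 37 bases before the Srxn1 start. The others read as the motif on the opposite strand, from 158 to 150 bases before the start in Srxn1 to 57 to 49 bases before it in G6pdx. The bases before the start in the windows of Nqo1 and Cat held neither form.

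The libraries held 4638701 to 30465477 counted reads, and every member had at least 15 reads in every mouse. In replicate 3 of (B6.A4 X B6.A14)F1 the summed level of 4 Y-linked genes was 2.94 CPM (counts scaled to a common library size), against 228 to 432 CPM in the other mice, which does not match the description of the animals as male. Replicate 14 of B6 had the highest Hmox1 and the highest G6pdx of all 154 mice. Results that rest on either library are given with and without it. In these whole-liver samples a smaller number of cells of a type cannot be told apart from less RNA per cell.

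Levels of the members in B6 liver spanned almost 3 orders of magnitude per length of transcript. Catalase (Cat), which removes hydrogen peroxide in peroxisomes, averaged 1026 CPM per kb of exon in the 20 B6 mice. The catalytic and modifier subunits of glutamate-cysteine ligase, which makes the precursor of glutathione, averaged 39.0 (Gclc) and 30.4 (Gclm) CPM per kb. Hmox1 (heme oxygenase), Srxn1 (sulfiredoxin, which repairs oxidized peroxiredoxins), Txnrd1 (cytosolic thioredoxin reductase) and Osgin1 (an oxidative stress induced growth inhibitor) lay between 14.8 and 10.6 CPM per kb. Nqo1, the quinone reductase most often used as a readout of NRF2, was at 5.31 CPM per kb, and G6pdx (glucose-6-phosphate dehydrogenase, the entry of the pentose phosphate pathway) at 1.17 CPM per kb.

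The members also differed in how much they varied between mice of the control strain. Txnrd1 was the tightest, between 83.2 and 107 CPM with a median of 90.9 CPM and a coefficient of variation of 6.83%. Osgin1 ranged from 10.7 to 64.6 CPM around a median of 26.9 CPM, with a coefficient of 50.5%. Gclc ranged from 83.2 to 227 CPM around a median of 139.7 CPM (29.3%), and Gclm from 148 to 257 CPM around 185 CPM (14.9%). Srxn1 (28.4 to 52.6 CPM, median 39.4 CPM), Cat (1829 to 3218 CPM, median 2689 CPM) and Nqo1 (6.47 to 12.7 CPM, median 7.30 CPM) had coefficients of 14.2%, 13.03% and 22.6%. For Hmox1 and G6pdx the coefficient depended on 1 animal.

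**Figure D1:**
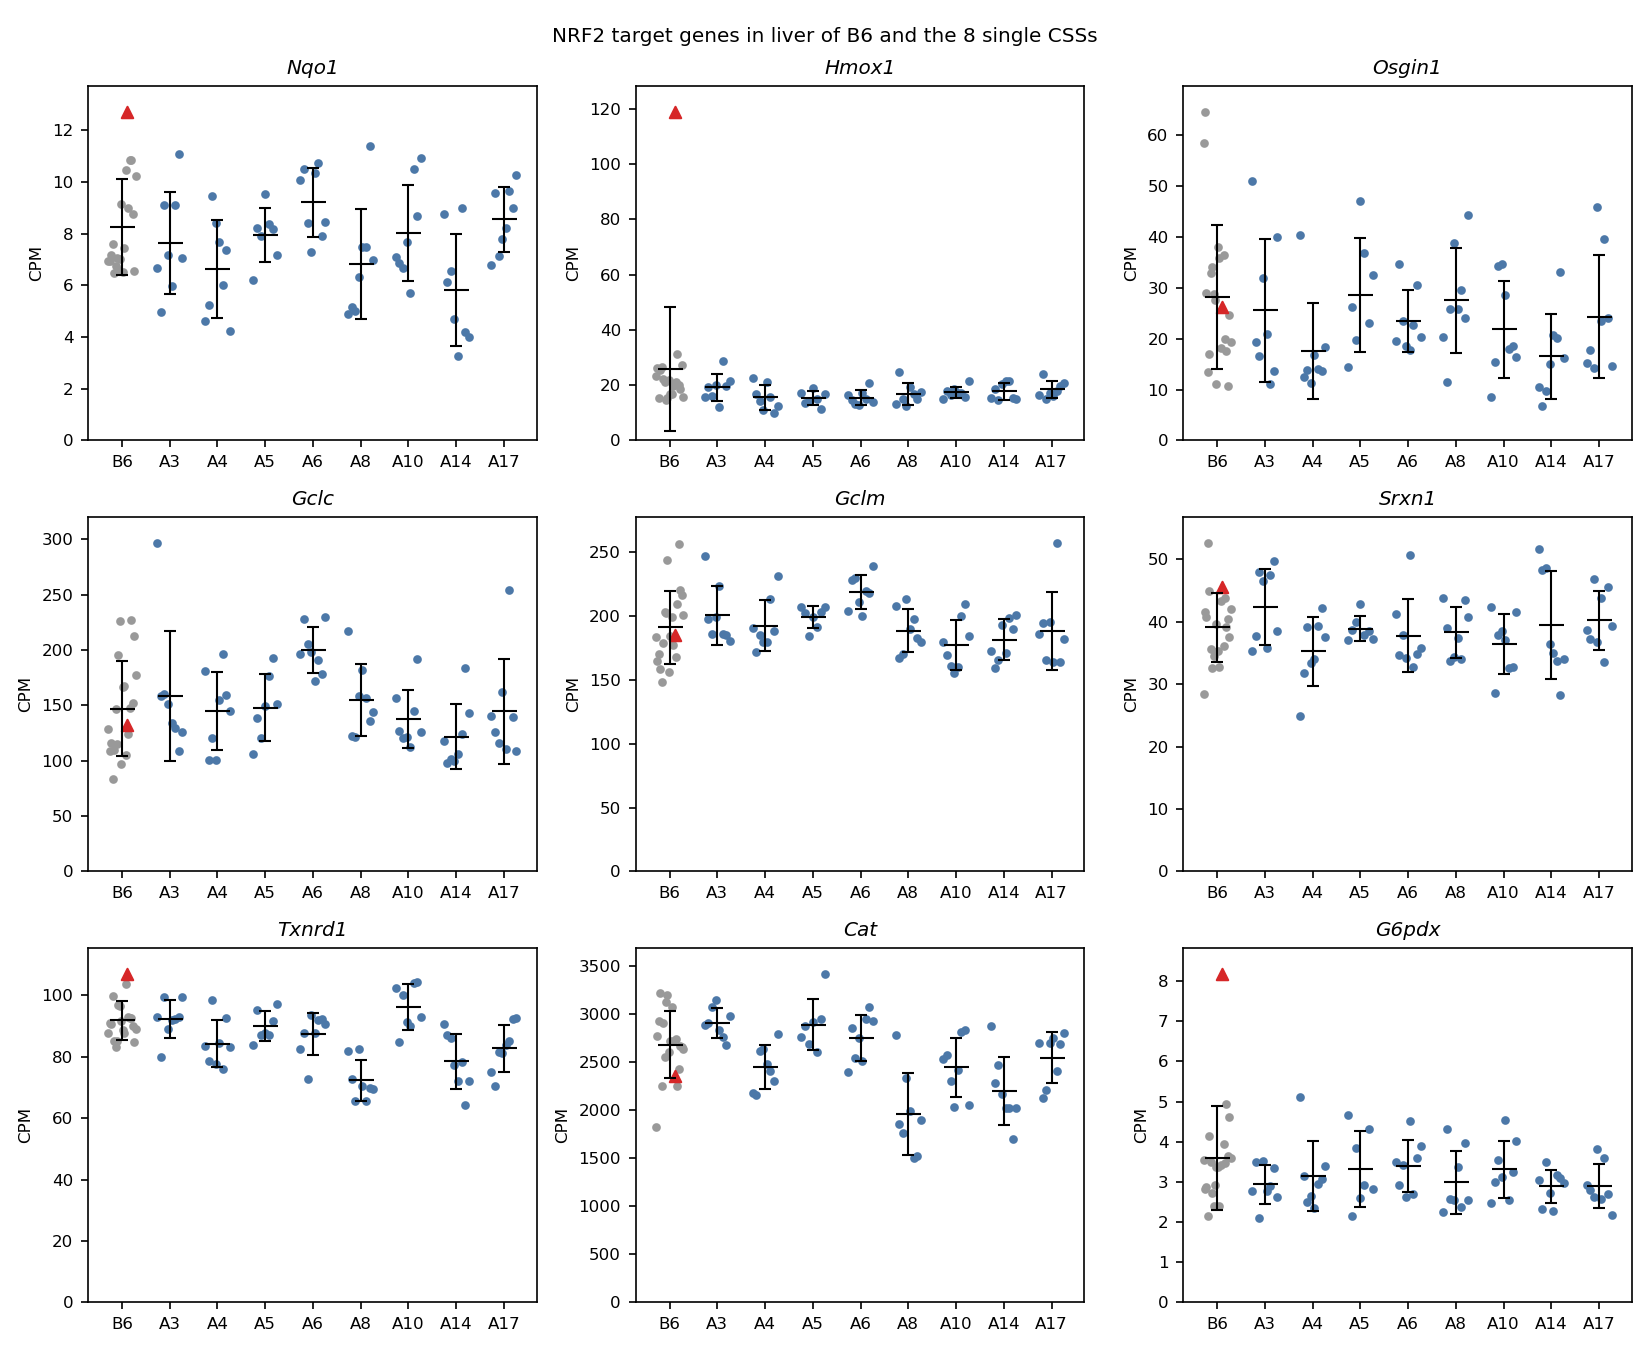
Level of each member in CPM (vertical axes, from 0) in every mouse of B6 and the 8 single CSSs (horizontal axes). Points are mice, black bars are the mean ± SD, and the red triangle is B6 replicate 14. That mouse stands alone for Hmox1 (119 CPM) and G6pdx (8.17 CPM), and the A8 mice all lie below the B6 mice for Txnrd1.

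Hmox1 degrades heme to biliverdin, iron and carbon monoxide, and is strongly expressed by macrophages that take up red cells as well as being inducible in hepatocytes. B6 replicate 14 had 119 CPM of Hmox1, 5.66 times the mean of the other 19 B6 mice (20.97 ± 4.72 CPM, SD, range 14.5 to 31.2 CPM). G6pdx in the same mouse was 8.17 CPM, 2.43 times the mean of the other 19 (3.36 ± 0.734 CPM, range 2.15 to 4.95 CPM). Its Nqo1 was 12.7 CPM, the second highest of the 154 mice, and its Txnrd1 was 107 CPM, the third highest. Gclc, Gclm and Osgin1 were not high in this animal, at 0.895, 0.966 and 0.925 times the mean of the others, and Cat was at 0.873 times it. Srxn1 was at 1.175 times the mean of the others and ranked 20 of 154, while Txnrd1 was at 1.174 times. The mouse was picked as the B6 mouse with the highest Hmox1, so its high Hmox1 was set by that choice. The share of all genes that ranked as high in this mouse was not counted.

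Other transcripts of that mouse were also displaced, chosen here after their values were seen. The sum of 8 Kupffer cell and macrophage markers was 590 CPM against 330 to 564 CPM in the other 19 B6 mice, and the scavenger receptor gene Marco was at 104 CPM against 10.05 to 74.0 CPM. By this sum the mouse ranked 5 of 154, and the highest single CSS mouse had 690 CPM. Clec4f, another of these markers, was at 112.5 CPM, inside the range of 75.3 to 116.2 CPM. The iron hormone gene Hamp was at 416 CPM against 47.0 to 367 CPM. The sum of 5 blood leukocyte markers was 40.9 CPM, inside the range of 17.6 to 47.8 CPM. The acute phase genes Saa1 (248 CPM) and Lcn2 (82.2 CPM) lay above the medians of the other B6 mice (37.9 and 8.88 CPM) and below their highest values. Mup7 (20.25 CPM) and Cyp7b1 (14.4 CPM) lay below the medians (280.5 and 110.4 CPM) and above the lowest values. None of the 8 macrophage markers was at 0 on average, and their part in the Hmox1 value was not tested.

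Hmox1 was lower than in B6 in each of the 8 single CSSs by the fitted value, and the size of that difference turned on this 1 control. The highest of the 63 single CSS mice had 28.7 CPM and the lowest 9.86 CPM, so each strain overlapped the B6 range. Strain means ran from 15.3 ± 2.52 CPM (SD, n = 7) with chromosome 5 to 19.2 ± 4.93 CPM (n = 8) with chromosome 3. The fitted log2 fold changes were -0.70 to -0.47, and 5 of the 8 passed a false discovery rate (FDR) of 0.05, for chromosomes 4, 6, 8, 10 and 14. With B6 replicate 14 left out and the model refitted, the changes were -0.41 to -0.16 and the same 5 passed, at -0.37 (chromosome 4), -0.35 (6), -0.37 (8), -0.36 (10) and -0.33 (14). The 8 comparisons share the same B6 mice and are not independent of each other. In the order of the 9 strain means, no neighbouring pair of strains differed by more than the larger SD of the pair.

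Across all members, 14 of 72 main effects passed FDR 0.05, 13 of them lower and 1 higher than in B6, where 11.1% of all gene by chromosome tests passed. An unadjusted p under 0.05 was reached by 27 of the 72. Gclm and Srxn1 passed for no chromosome with edgeR or DESeq2, with 2 and 0 of their 8 effects under an unadjusted p of 0.05.

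**Figure D2:**
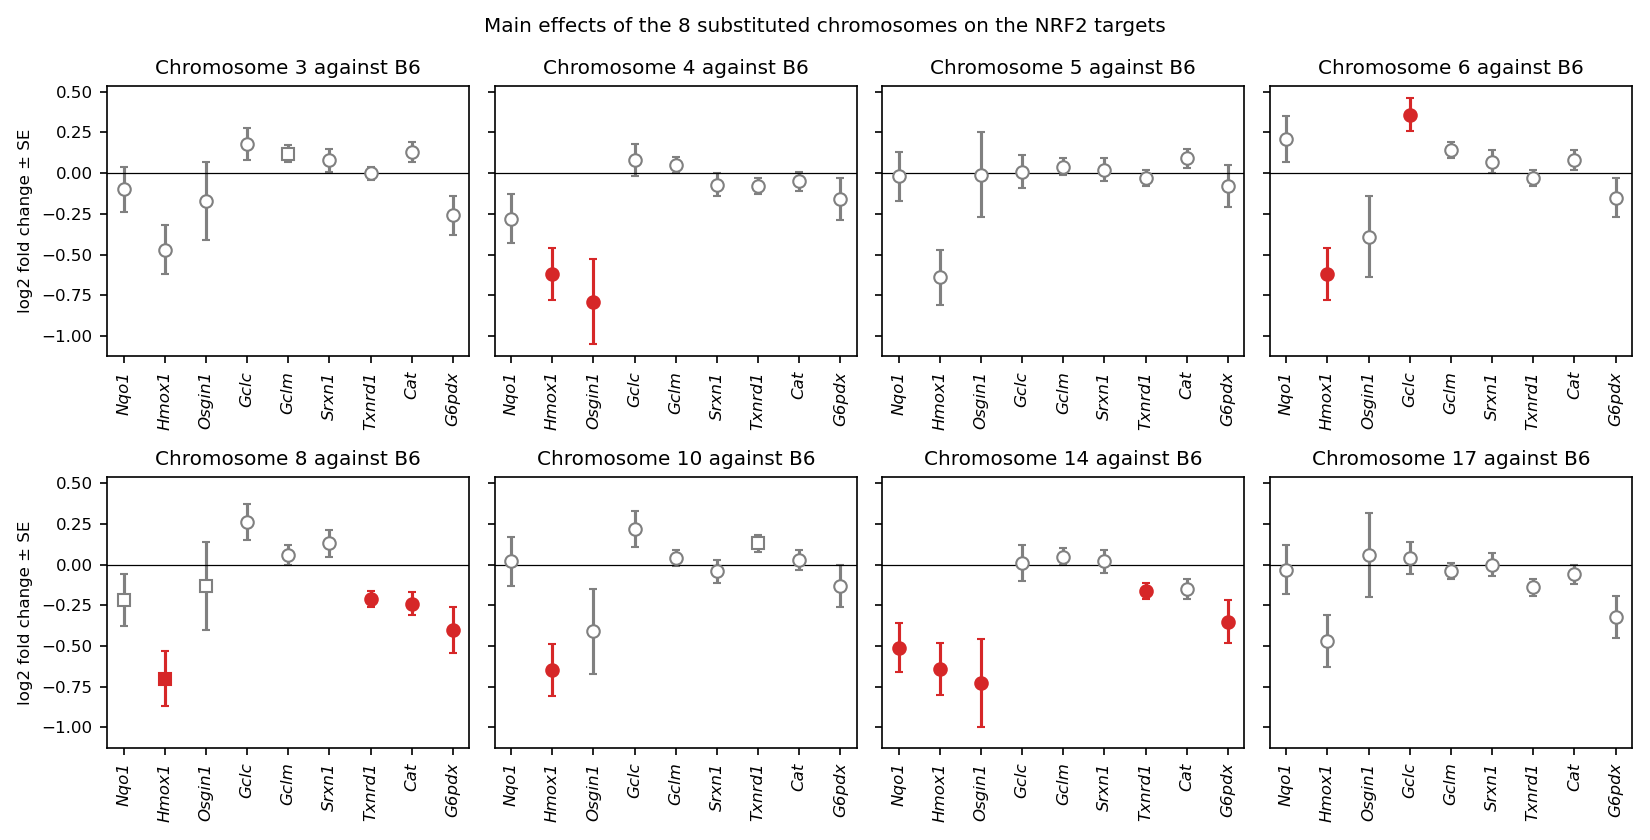
Main effect of each A/J chromosome on each member as the log2 fold change against B6 with its SE (vertical axes), 1 panel per chromosome. Filled red symbols passed FDR 0.05, and squares mark members that lie on the substituted chromosome. Hmox1 was below 0 in all 8 panels, from -0.70 to -0.47, and Gclc with chromosome 6 (0.36) was the 1 call above 0.

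Chromosome 8 lowered 4 of the 9 members, where 29.6% of all genes passed in either direction and 16.7% passed as lower. Of the 3 members on chromosome 8 itself, Hmox1 (chr8:75093621-75100589) was called at -0.70 ± 0.17 (SE, FDR 0.000653). Nqo1 (chr8:107388225-107403206) was at -0.22 ± 0.16 with FDR 0.322, and Osgin1 (chr8:119434124-119446256) at -0.13 ± 0.27 with FDR 0.764. The 3 called members on other chromosomes were Txnrd1, Cat and G6pdx. Gclc (0.26), Gclm (0.06) and Srxn1 (0.13) had fitted values above 0 that did not pass. The median over the 9 members was -0.21 and over all genes -0.01.

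Txnrd1 (chr10:82833951-82897712) separated the chromosome 8 single CSS from B6 completely. The 8 mice of (B6.A8 X B6)F1 had 65.7 CPM as the lowest, 70.3 CPM as the median and 82.6 CPM as the highest, and the lowest B6 mouse had 83.2 CPM. It was the only member whose mice did not overlap B6 for any of the 8 chromosomes, where 0.956% of all genes did so for chromosome 8. The main effect was -0.21 ± 0.05 (FDR 0.000612). It was -0.35 when no surrogate variables were fitted and -0.12 (FDR 0.152) with 10.

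Cat (chr2:103453849-103485160) fell with chromosome 8 as well. The 8 mice of that strain had 1504 to 2781 CPM with a median of 1878 CPM, and 6 of them were at or below 1989.5 CPM, where 1 of the 20 B6 mice (1829 CPM) lay. The main effect was -0.24 ± 0.07 (FDR 0.00429). It was -0.45 with no surrogate variables and -0.05 (FDR 0.684) with 10, so its size depended on the adjustment. G6pdx (chrX:74409483-74429194) was at 2.24 to 4.31 CPM in these mice and 2.15 to 8.17 CPM in B6, with a main effect of -0.40 ± 0.14 (FDR 0.021). Its call was lost without B6 replicate 14 (refitted -0.29, FDR 0.0832) and without replicate 1, 3 or 6 of (B6.A8 X B6)F1, with an FDR of at most 0.0877 over those leave-outs.

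The hepatocyte markers moved with chromosomes 8 and 14. The sum of 6 hepatocyte markers was 54267 to 112299.6 CPM in the chromosome 8 single CSS and 100118 to 159183 CPM in B6 without replicate 14. Of these 6 markers, 5 were called lower with chromosome 8 and 4 with chromosome 14. Their part in the Txnrd1, Cat and other results for these chromosomes was not tested.

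Chromosome 14 lowered 5 of the 9 members, where 22.5% of all genes passed and 12.6% passed as lower. All 3 members that lie on chromosome 8 were among them. Nqo1 was at 3.25 to 8.98 CPM in the 8 mice of (B6 X B6.A14)F1, with 4 of them below 5 CPM, and its main effect was -0.51 ± 0.15 (FDR 0.00934). Osgin1 was at 6.76 to 33.1 CPM, with a main effect of -0.73 ± 0.27 (FDR 0.0383). Hmox1 was at -0.64 ± 0.16, and Txnrd1 at -0.16 ± 0.05 (FDR 0.00706) with 64.4 to 90.6 CPM in the 8 mice. G6pdx was at -0.35 ± 0.13 (FDR 0.0397) and -0.25 (FDR 0.141) without B6 replicate 14. The Osgin1 call was lost without replicates 1, 2, 3, 4 or 8 of (B6 X B6.A14)F1 and without replicates 1 or 2 of B6, 1 at a time (largest FDR 0.119). The G6pdx call was also lost without replicates 2, 4, 5, 7 or 8 of that strain or replicates 1, 5 or 14 of B6 (largest FDR 0.148). With 10 surrogate variables only Hmox1 kept its call. Nqo1 (-0.39, FDR 0.157), Osgin1 (-0.65, FDR 0.185), Txnrd1 (-0.10, FDR 0.208) and G6pdx (-0.43, FDR 0.0589) did not pass there. With no surrogate variables only the G6pdx call was lost (FDR 0.0786).

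Chromosome 4 lowered Hmox1 and Osgin1, where 13.5% of all genes passed. Osgin1 was at 11.3 to 18.4 CPM in 7 of the 8 mice of (B6.A4 X B6)F1 and at 40.4 CPM in replicate 1, and its main effect was -0.79 ± 0.26 (FDR 0.032). The call was lost without replicates 4, 6 or 7 of that strain or replicates 1 or 2 of B6 (largest FDR 0.0769). With 10 surrogate variables neither the Hmox1 (-0.49, FDR 0.102) nor the Osgin1 call (-0.68, FDR 0.198) was kept. With none the Osgin1 call was lost as well (-0.69, FDR 0.103). Chromosome 10 lowered Hmox1 (-0.65 ± 0.16, FDR 0.00808), where 6.64% of all genes passed. No member was called by edgeR for chromosomes 3, 5 or 17, where 3.70%, 0.768% and 3.67% of genes passed. Unadjusted, Hmox1 was under 0.05 for all of these (-0.47, -0.64 and -0.47), Txnrd1 (-0.14) and G6pdx (-0.32) for chromosome 17, and Gclm (0.12), Cat (0.13) and G6pdx (-0.26) for chromosome 3. DESeq2 called 1 member, Hmox1, for chromosomes 3 and 5 and 0 for chromosome 17.

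Chromosome 6 was the only one to raise a member. Gclc (chr9:77754535-77794485) was at 172 to 230 CPM in the 8 mice of (B6 X B6.A6)F1 (200 ± 20.9 CPM, SD), and at 147 ± 43.1 CPM in B6. All 8 mice were above the B6 median of 139.7 CPM, and the highest B6 mice reached the same levels. The main effect was 0.36 ± 0.10 (FDR 0.0149), where 8.09% of all genes passed and 4.30% passed as higher. It was 0.45 (FDR 0.0248) with no surrogate variables and 0.19 (FDR 0.294) with 10. Gclm, its partner, was at 200.1 to 239 CPM in the same mice with a main effect of 0.14 ± 0.05 that did not pass (FDR 0.0699). In the order of the 9 strain means of log2 CPM, Gclc and Gclm were the 2 members with a neighbouring pair of strains farther apart than the larger SD of the pair. In both the pair was chromosome 6 and the next strain, 0.39 apart with a larger SD of 0.29 for Gclc and 0.13 apart with 0.09 for Gclm. Hmox1 moved the other way with chromosome 6 (-0.62 ± 0.16, FDR 0.00704).

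Besides the chromosome 8 members, 2 others lie on a substituted chromosome. Txnrd1 on chromosome 10 was at 84.8 to 105 CPM in the 8 mice of (B6.A10 X B6)F1 and had a main effect of 0.13 ± 0.05 that fell just short (FDR 0.0516) and passed without B6 replicate 14 (0.15, FDR 0.0279) or without the mouse with few Y-linked reads (0.14, FDR 0.0373). Gclm on chromosome 3 (chr3:122245557-122270732) had a main effect of 0.12 ± 0.05 (FDR 0.105) in (B6 X B6.A3)F1. In a model without interaction terms, added after the data were seen, each chromosome's effect is an average over all strains that carry it. There Txnrd1 with chromosome 10 was at 0.15 ± 0.03 (FDR 6.13e-06, 4.73% of genes called) and Gclm with chromosome 3 at 0.10 ± 0.03 (FDR 0.0147, 2.72% called). For chromosome 8 this average kept 1 member, Hmox1 at -0.29 ± 0.10 (FDR 0.0229, 2.25% called), and Txnrd1 and Cat were at -0.04 and -0.03. The other calls were Cat with chromosome 6 (0.13 ± 0.04, FDR 0.0305) and Hmox1 with chromosome 5 (-0.32 ± 0.10, FDR 0.0417). The shares over all genes for these chromosomes are not given here. Gclc with chromosome 6 (0.16 ± 0.06, FDR 0.143) and the members called for chromosome 14 (FDR 0.151 to 0.872) did not pass.

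Over the 15 double CSSs, 11 of 135 interactions passed FDR 0.05, 10 above 0 and 1 below, where 5.96% of all gene by cross tests passed. An unadjusted p under 0.05 was reached by 35. In all 11 called cases, the double CSS lay closer to B6 than the sum of its 2 main effects did, and in 7 of the 11 the unadjusted p of the double CSS against B6 was above 0.1. Both quantities are measured against the same B6 mice. The interaction is the double CSS minus the sum, so error in the B6 and single CSS means shifts interaction and sum in opposite directions. Cases picked for a called interaction lean toward this outcome, and the count was not a test of it. These 2 shares were not counted over all genes here. The study reports that most of the interactions it found over all genes were antagonistic in this sense. It also reports that most of those returned to B6 levels in the double CSS.

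**Figure D3:**
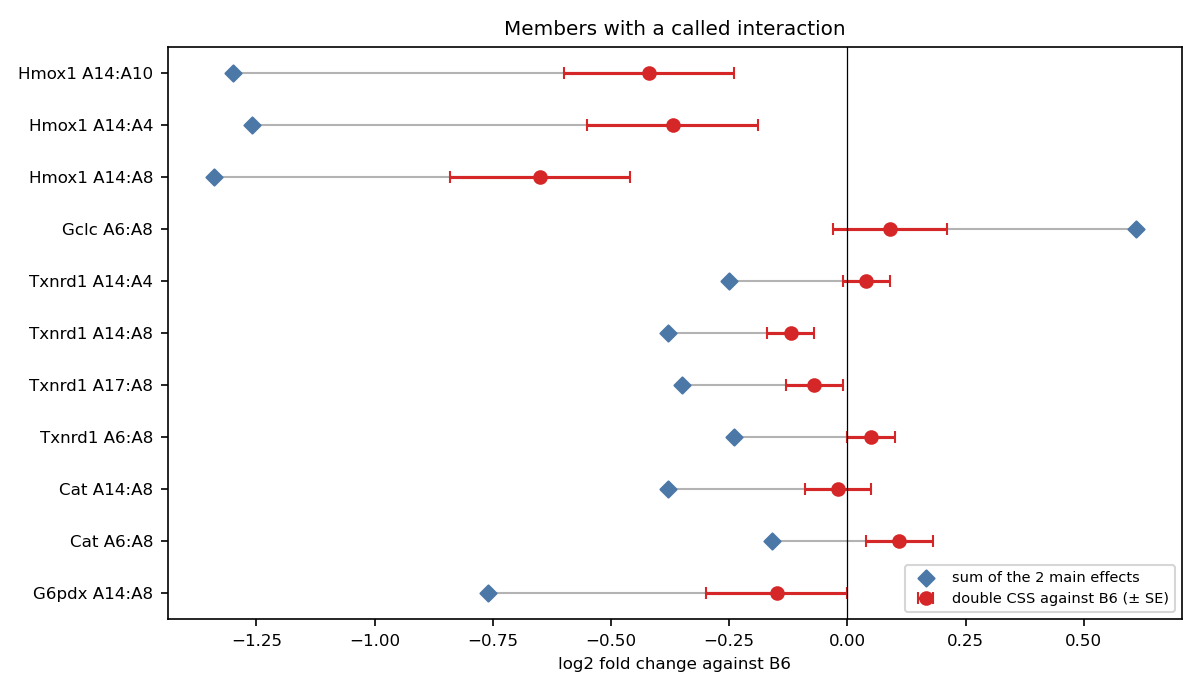
The 11 called interactions, each with the sum of the 2 main effects (blue diamonds) and the measured double CSS against B6 with its SE (red circles), as log2 fold changes on the horizontal axis. For Txnrd1 the sums of -0.38 to -0.24 compare with measured values of -0.12 to 0.05, and for Gclc in A6:A8 the sum of 0.61 compares with 0.09.

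Txnrd1 had an interaction in 4 crosses, the most of any member. With chromosome 8 these were A6:A8 (0.29 ± 0.08, FDR 0.00219, 24.8% of genes called), A14:A8 (0.26 ± 0.08, FDR 0.00838, 32.4% called) and A17:A8 (0.27 ± 0.08, FDR 0.0212, 8.68% called). The 6 mice of (B6.A8 X B6.A6)F1 had 97.4, 72.7, 101, 99.0, 87.8 and 88.8 CPM, and 5 of them were above every mouse of the chromosome 8 single CSS. The 5 mice of (B6.A8 X B6.A14)F1 had 77.0, 82.8, 84.8, 86.2 and 82.7 CPM, although each parental substitution alone had lowered the gene. The 5 mice of (B6.A8 X B6.A17)F1 had 81.7, 94.5, 84.0, 93.2 and 78.01 CPM, and this call was lost without replicate 2 (FDR 0.0922). The fourth was A14:A4 (0.29 ± 0.08, FDR 0.0261, 4.63% called), with 86.2, 107, 106, 85.1 and 97.4 CPM. Replicate 3 of that cross is the mouse with few Y-linked reads, and a refit without it gave 0.25 with FDR 0.0738. The A14:A4 call was also lost without replicate 5 (largest FDR 0.0808). With 10 surrogate variables all 4 calls were lost. The values were 0.20 (A6:A8, FDR 0.158), 0.14 (A14:A8, FDR 0.311), 0.17 (A17:A8, FDR 0.416) and 0.22 (A14:A4, FDR 0.147). With no surrogate variables all 4 passed, at 0.40 to 0.42. A filter of 15 reads in 75% of mice gave FDR 0.0664 for A14:A8 and 0.0552 for A17:A8.

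Cat followed Txnrd1 in 2 of these crosses. In A14:A8 the interaction was 0.36 ± 0.11 (FDR 0.0047), and the 5 mice had 2343, 2453, 2629, 2412 and 2622 CPM, each higher than 7 of the 8 mice with chromosome 8 alone. In A6:A8 it was 0.27 ± 0.10 (FDR 0.0386), with 2828, 2753, 2839, 2767, 2600 and 2807 CPM. The A6:A8 call was lost when replicate 1, 3, 5 or 6 of the cross was left out (largest FDR 0.0675), and also without the mouse with few Y-linked reads (0.21, FDR 0.0831). Both Cat interactions depended on the adjustment. With 10 surrogate variables they were 0.04 (A14:A8, FDR 0.867) and 0.05 (A6:A8, FDR 0.863), and with none 0.64 and 0.46. A filter of 15 reads in 75% of mice gave FDR 0.0537 and 0.126.

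**Figure D4:**
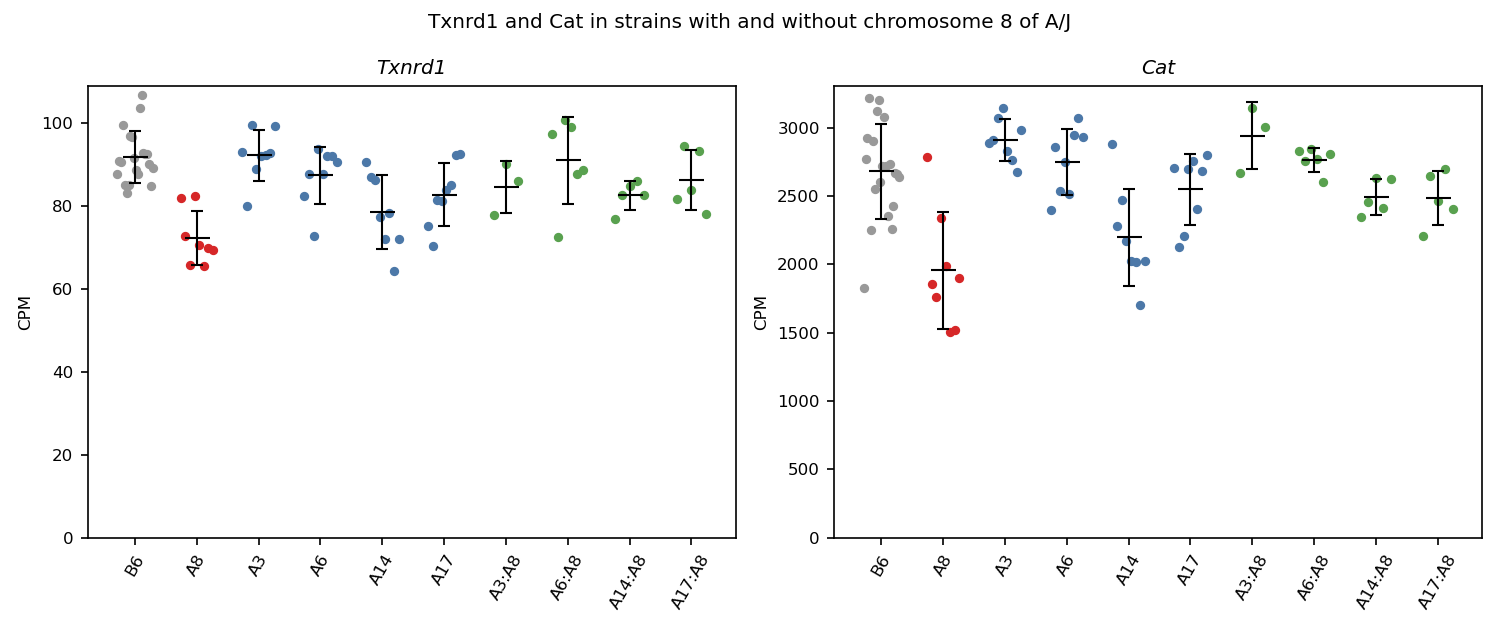
Txnrd1 and Cat in CPM (vertical axes, from 0) in B6 (grey), the chromosome 8 single CSS (red), the 4 single CSSs it was crossed with (blue) and the 4 double CSSs (green). Points are mice and black bars the mean ± SD. The chromosome 8 single CSS had the lowest mean of these strains for both genes, 72.3 ± 6.60 CPM and 1955 ± 427 CPM.

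Gclc gave the 1 interaction below 0. Chromosomes 6 and 8 had main effects of 0.36 and 0.26, the second not called (FDR 0.0692), and A6:A8 had an interaction of -0.52 ± 0.17 (FDR 0.0146). The interaction was -0.41 (FDR 0.17) with no surrogate variables and -0.18 (FDR 0.651) with 10. The 6 mice had 200.1, 175, 184, 129, 123 and 142 CPM, of which 4 were above the B6 median, and the double CSS against B6 was 0.09 ± 0.12. With chromosomes 14 and 8 together Gclc was at 166, 199.8, 191.2, 159 and 182 CPM, all above the B6 median. That double CSS was 0.54 ± 0.12 above B6 in the fit (FDR 0.00232, 4.82% of genes called), while the 2 main effects added to 0.27 and the interaction did not pass. Mean log2 CPM of Gclc was 7.49 in that double CSS and 7.14 in B6, closer together than the fitted value.

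Interactions of Hmox1 and G6pdx depended on the single control mouse. Hmox1 was called in A14:A4 (0.90 ± 0.27, FDR 0.0384), A14:A8 (0.70 ± 0.27, FDR 0.0393) and A14:A10 (0.88 ± 0.28, FDR 0.0499, 4.16% of genes called), and its fitted interaction was above 0 in all 15 crosses. Without B6 replicate 14 these 3 were 0.56 (FDR 0.0539), 0.32 (FDR 0.167) and 0.52 (FDR 0.0889), and 0 of the 15 Hmox1 interactions passed edgeR's test, with 6 of the 15 under an unadjusted p of 0.05. Without the mouse with few Y-linked reads, which had the highest Hmox1 of its cross at 29.2 CPM, A14:A4 was 0.87 with FDR 0.0793 and A14:A10 was 0.91 with FDR 0.0513, while Hmox1 in A6:A8 passed (0.70, FDR 0.0429, from 0.66 and FDR 0.0536). The A14:A4 call was also lost without replicate 4 or 5, A14:A8 without replicate 1 or 4, and A14:A10 without any of replicates 1, 2, 3 and 5 (largest FDR 0.0926). G6pdx in A14:A8 was 0.61 ± 0.23 (FDR 0.0315) and 0.48 (FDR 0.0691) without B6 replicate 14, and it was also lost without replicate 1 or 4 of the cross (largest FDR 0.0998).

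Compared directly with B6, 9 of 135 double CSS values passed, where 3.98% of all tests did. Hmox1 accounted for 5, all lower, from -0.84 ± 0.20 in A17:A8 (6.06% called) to -0.63 ± 0.19 in A6:A4 (4.82% called). Without B6 replicate 14, 4 Hmox1 values passed and all 15 lay between -0.61 and -0.13, and Txnrd1 in A14:A10 (0.16, FDR 0.0455) and Gclc in A17:A8 (0.38, FDR 0.0458) passed as well. The others were Gclc in A14:A8, Gclm in A3:A5 (0.16 ± 0.06, FDR 0.0413, 13.5% called), Srxn1 in A17:A4 (0.28 ± 0.09, FDR 0.0462, 4.15% called) and Cat in A14:A4 (-0.32 ± 0.07, FDR 0.00131, 13.9% called). The Cat value rested partly on the mouse with few Y-linked reads, which had 1584 CPM where the other 4 mice had 2176 to 2483 CPM, and was -0.19 (FDR 0.0831) without it. Nqo1 in the same cross was at 11.5 CPM in that mouse and 4.73 to 6.34 CPM in the other 4, and its value against B6 was -0.23 (FDR 0.424) with the mouse and -0.58 ± 0.19 (FDR 0.0435) without it. Srxn1 in A17:A4 was at 0.27 with FDR 0.0557 in that refit.

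Tested jointly over all 23 strain terms, 6 of the 9 members differed between strains, where 51.4% of all genes did. These were Txnrd1 (FDR 5.59e-07), Cat (8.37e-06), Hmox1 (0.00221), Gclc (0.00385), Srxn1 (0.00472) and Nqo1 (0.0256). Osgin1 (0.0509), Gclm (0.188) and G6pdx (0.301) did not pass. Over the 15 interaction terms alone, 3 passed, Txnrd1 (0.00682), Srxn1 (0.0183) and Gclc (0.0316), where 27.4% of all genes did. Srxn1 passed both joint tests with no single main effect or interaction called, and its strain means ranged from 33.0 ± 3.39 CPM in A3:A5 to 47.9 ± 6.30 CPM in A17:A4.

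Genes of the control machinery, among them activators and inhibitors of NRF2, were called lower with chromosomes 8, 14 and 4. Of 9 NRF2 regulators, 6 were called lower with chromosome 8 and 6 with chromosome 14, and none higher, where 16.7% and 12.6% of all genes were called lower. The median log2 fold changes were -0.23 and -0.19 beside -0.01 for all genes in both. With chromosome 4, 3 of the 9 were called lower, where 5.88% of all genes were. These were Nfe2l1 (-0.31 ± 0.06, FDR 0.000309), which encodes a relative of NRF2, Mafg (-0.35 ± 0.08, FDR 0.0019), a small MAF, and Keap1 (-0.14 ± 0.05, FDR 0.0471). Nfe2l2 itself was at 46.9 ± 6.24 CPM with chromosome 8 and 45.2 ± 5.32 CPM with chromosome 14, against 53.1 ± 7.86 CPM in B6 (-0.31 ± 0.08, FDR 0.00295, and -0.30 ± 0.08, FDR 0.00275). Sqstm1, whose product p62 sequesters KEAP1, was at 176.1 ± 29.5 and 193 ± 29.7 CPM against 236 ± 21.6 CPM (-0.23 ± 0.06 and -0.19 ± 0.05). Bach1, the repressor, was also lower (-0.28 ± 0.10 and -0.33 ± 0.09). Of the genes that act in NRF2 degradation, Cul3 was called lower with chromosome 8 (-0.11 ± 0.04, FDR 0.0481). Keap1 was called lower with chromosome 14 (-0.13 ± 0.05, FDR 0.0427). Maff, called lower with both chromosomes, averaged only 1.19 CPM in B6. In A14:A8, 5 of the 9 had a called interaction above 0 and none below, where 18.1% of all genes were called above 0, and Nfe2l2 was at 0.69 ± 0.13 (FDR 1.55e-05). In A6:A8, 5 of 9 were again called above 0, where 13.4% of all genes were, and Nfe2l2 was not among those called (0.27 ± 0.13, FDR 0.112).

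The wider pathway did not move one way. Over 8 lists of related genes, 57 of 60 listed genes were in the table, and with chromosome 8 there were 11 called higher and 18 lower, where 12.9% of all genes were called higher and 16.7% lower. These lists include the 9 regulators described above, which gave 6 of the 18 lower calls. The members of the thioredoxin and peroxiredoxin list with the smallest FDR rose, Prdx1 (0.39 ± 0.06) and Txn1 (0.26 ± 0.05), while Txnrd1, which reduces thioredoxin, fell. In the glutathione list Gpx4, which reduces lipid peroxides, rose (0.28 ± 0.06) and the synthase Gss fell (-0.23 ± 0.06). Among glutathione S-transferases 3 of 9 rose and none fell, led by Mgst1 (0.30 ± 0.08) and Gstp1 (0.60 ± 0.19). In the heme and iron list Blvrb, a biliverdin reductase downstream of HMOX1, rose (0.51 ± 0.10) and Alas1, the first step of heme synthesis, fell (-0.87 ± 0.26). Aox1 rose (0.68 ± 0.12) and Akr1b7 fell (-1.46 ± 0.40) among the detoxification genes. Akr1b7 rested on few reads, at 0.42 ± 0.18 CPM with chromosome 8 against 0.92 ± 0.67 CPM in B6. Both named NADPH genes split as well in the fit, Idh1 at 0.23 ± 0.06 and Tkt at -0.22 ± 0.08. By CPM, Idh1 was at 306 ± 49.9 against 296.5 ± 36.1 in B6, and Tkt at 38.6 ± 5.06 against 48.9 ± 4.66. The superoxide dismutases Sod2 (-0.11 ± 0.03) and Sod3 (-0.35 ± 0.11) fell. These changes are fitted values with 5 surrogate variables, and other numbers of them were not compared here for the listed genes. With chromosome 6, where Gclc was called higher, 15 of the 57 genes rose and none fell, where 4.30% of all genes rose. With chromosome 14, 5 rose and 13 fell, 6 of the 13 being regulators, where 9.98% of all genes rose and 12.6% fell. The called interactions leaned opposite ways in the 2 crosses with the most. In A14:A8, 24 were above 0 and 6 below, where 18.1% and 14.3% of all genes were, and in A6:A8, 6 were above 0 and 12 below, where 13.4% and 11.4% were. The regulators gave 5 of the 24 above 0 in A14:A8 and 5 of the 6 above 0 in A6:A8.

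Between mice of 1 genotype, the glutamate-cysteine ligase subunits moved together and few other pairs did. Across the 20 B6 mice Gclc and Gclm had Pearson r = 0.85 (permutation p = 2e-05) and Spearman rho = 0.83 (permutation p = 3e-05) of log2 CPM, the only pair of 36 to pass for Pearson r after adjustment (adjusted permutation p = 0.00072). Without the 2 mice farthest from the Gclc median r was 0.80. In the 63 single CSS mice with strain means subtracted r was 0.69 (adjusted permutation p = 0.00018). On B6 values after removal of the 5 surrogate variables r was 0.67 (adjusted permutation p = 0.0524) and rho 0.68 (adjusted permutation p = 0.023).

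**Figure D5:**
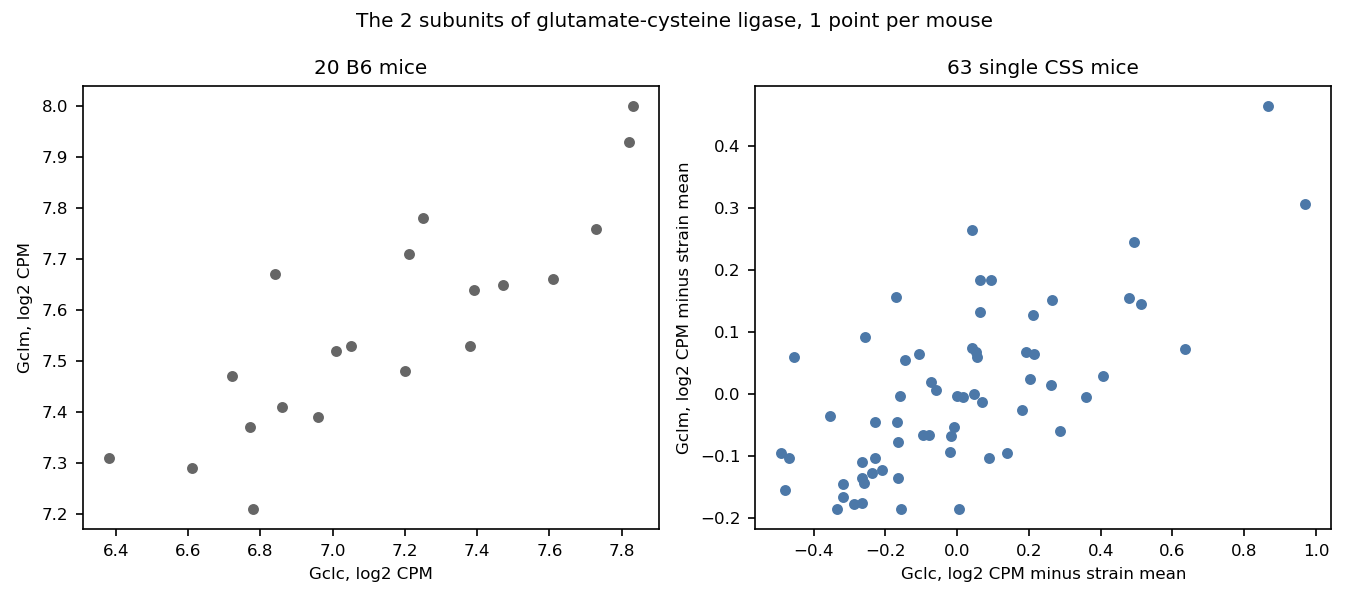
Gclc (horizontal axes) against Gclm (vertical axes), 1 point per mouse, as log2 CPM in the 20 B6 mice (left) and as log2 CPM minus the strain mean in the 63 single CSS mice (right). Both panels rise from lower left to upper right, with r of 0.85 and 0.69.

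Other pairs held in fewer settings. Hmox1 and G6pdx had r = 0.71 in the 20 B6 mice (adjusted permutation p = 0.0643) but rho = 0.38 (adjusted permutation p = 0.292), and r was 0.29 without the 2 mice farthest from the Hmox1 median, so the relation rested on those mice. Cat and G6pdx ran against each other in the 20 B6 mice, with r = -0.54 (adjusted permutation p = 0.105) and rho = -0.65 (adjusted permutation p = 0.0425), and r was -0.64 without the 2 mice farthest from the Cat median. Their rho was -0.72 (adjusted permutation p = 0.0191) after removal of the surrogate variables, -0.63 (adjusted permutation p = 0.0941) without B6 replicate 14 and -0.29 (adjusted permutation p = 0.122) in the single CSS mice. Osgin1 and Srxn1 also ran against each other, with r = -0.60 in B6 (adjusted permutation p = 0.0643) and -0.50 in the single CSS mice (adjusted permutation p = 0.00168). Txnrd1 and Cat had r = 0.63 in the single CSS mice (adjusted permutation p = 0.00018). In those mice 6 of 36 pairs passed for r, 4 of them positive, the others being Osgin1 with Gclc (0.45), Nqo1 with Srxn1 (0.40) and Gclm with Srxn1 (-0.41). Of these 6, Nqo1 with Srxn1 did not pass for rho (0.36, adjusted permutation p = 0.0665).

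The genes whose pattern was most like each member were found by Pearson r of the 24 strain means of log2 CPM, among 9616 genes with an average of at least 2. The strain means share libraries and depth between genes, and r is given as a description. Nqo1 was closest to Pir (r = 0.77) and Htatip2 (0.70), Hmox1 to Vcam1 and Chmp2b (both 0.74), and Osgin1 to Foxq1 and Vps33b (both 0.72). Gclc was closest to the carboxylesterase genes Ces1f and Ces1e (both 0.83), and Gclm to Cyb5b (0.93) and Idh1 (0.86). Txnrd1 was closest to Kpnb1 (0.90) and Agt (0.89), and Cat to Lonp2 and Snap47 (both 0.92). Srxn1 (Slc52a2 and Akt1, both 0.69) and G6pdx (Ldlrad3, 0.67, and Gtf2h4, 0.66) had the weakest matches.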

How the data were processed

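Liver RNA-seq was available for 154 mice, 1 library each. The authors aligned reads with TopHat2 to mm10 and to a genome carrying A/J variants, counted reads per gene with HTSeq against GENCODE release M7, removed genes with few reads and 3 outlying samples, and deposited read counts per gene, which are the only values used here. Batch or flow cell labels were not used here. Symbols and positions came from GENCODE release M21 (mm10) for 13242 of 13289 genes, and coordinates are 1-based. Exon length is the union of a gene's annotated exons.

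Following the study's methods, counts were fitted over all 24 strains with edgeR 4.0.16 in R 4.3.3 (TMM normalization, quasi-likelihood F-test) with 8 main effects and 15 interactions. The fit also held 5 surrogate variables (sva 3.50.0), which absorb variation between libraries and can also absorb or add to differences between strains. FDR is the Benjamini-Hochberg adjusted p over all genes within an effect, with genes on and off the substituted chromosomes adjusted separately, and the threshold was 0.05. CPM are TMM-scaled, and log2 CPM used a prior count of 2. SE was taken from the fold change and its F statistic. Correlations used two-sided permutation tests with 100000 resamples, adjusted over 36 pairs, for which 1e-05 is the smallest possible p. The fit was tested on simulated data with 100 genes changed at each of 2 sizes among 13289 genes. It recovered 83 of 100 changes of 0.5 (log2) for chromosome 8 and 45 of 100 for A14:A8, and 99 and 83 of 100 changes of 1. The simulated libraries held no shared variation for surrogate variables to absorb, and few genes were changed. These rates are therefore for an easier setting than the real data.

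The members, the gene lists and the markers were chosen with earlier results of these data known. Named genes are the 9 members, the 2 genes per list with the smallest FDR for chromosome 8, and the 2 genes most like each member. Bach1, Cul3, Maff, the 3 regulators called for chromosome 4, and Marco, Clec4f, Hamp, Saa1, Lcn2, Mup7 and Cyp7b1 were named after their values were seen. Alternatives covered the number and kind of surrogate variables, size factors, DESeq2 1.42.0, a filter, the adjustment and leaving out single mice. For the members, counting error is small at these depths except for G6pdx and Nqo1, with as few as 15 and 27 reads in a mouse. Akr1b7 and Maff, named from the lists, were lower still, with means of 0.92 and 1.19 CPM in B6.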

Additional observations from a re-analysis of the deposited data

Results flagged for a closer look

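In 13 of 198 combinations of a member and a strain with 4 to 10 mice, 1 mouse lay apart from the others of its strain by Dixon's criterion on log2 CPM, and chance flags about 1 in 20. Gclc was at 296.5 CPM in replicate 1 of (B6 X B6.A3)F1 (others 109 to 161 CPM), 254 CPM in replicate 6 of (B6 X B6.A17)F1 (others 109 to 161.8 CPM) and 130 CPM in replicate 4 of (B6.A5 X B6.A17)F1 (others 205 to 236.7 CPM). Gclm was at 257 CPM in that same replicate 6 of (B6 X B6.A17)F1 (others 164 to 195 CPM), so both subunits of glutamate-cysteine ligase were high in 1 animal. In replicate 1 of (B6.A4 X B6)F1 Osgin1 was at 40.4 CPM (others 11.3 to 18.4 CPM) and G6pdx at 5.11 CPM (others 2.35 to 3.40 CPM). Nqo1 was at 3.36 CPM in replicate 1 of (B6.A8 X B6.A6)F1 (others 6.72 to 8.44 CPM) and 9.96 CPM in replicate 4 of (B6.A8 X B6.A17)F1 (others 6.03 to 6.96 CPM). Txnrd1 was at 85.0 CPM in replicate 1 of (B6.A10 X B6.A3)F1 (others 97.0 to 102 CPM). Cat was at 2369.6 CPM in replicate 2 of (B6.A5 X B6.A3)F1, 2600 CPM in replicate 5 of (B6.A8 X B6.A6)F1 and 2405 CPM in replicate 4 of (B6.A5 X B6.A17)F1, each the lowest of its cross. G6pdx was at 2.83 CPM in replicate 4 of (B6.A10 X B6.A17)F1 (others 3.54 to 3.59 CPM).

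A chromosome's effect differed with the second chromosome, by the interaction term, in 11 cases. These were Hmox1 in A14:A10 (0.88), A14:A4 (0.90) and A14:A8 (0.70), Gclc in A6:A8 (-0.52), Txnrd1 in A14:A4 (0.29), A14:A8 (0.26), A17:A8 (0.27) and A6:A8 (0.29), Cat in A14:A8 (0.36) and A6:A8 (0.27), and G6pdx in A14:A8 (0.61).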

How the results depend on the processing

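All 25 called member effects kept their direction in every alternative run. With 10 surrogate variables 6 of the 25 kept their call, and the counts fell to 6 over the main effects, 2 for chromosome 8, 1 over the interactions, 1 for A14:A8 and 0 for the joint interaction test. With no surrogate variables 18 of 25 were kept. With 5 within-strain principal components in their place, 21 of 25 were kept and counts rose to 26 interactions, 21 double CSS values against B6 and 5 members in the joint interaction test. Under those components 4 uncalled effects passed with the opposite sign, Cat with chromosome 10 (-0.13), Gclc with chromosome 14 (-0.25), and Gclc (0.47) and Gclm (0.19) in A14:A10. A filter of 15 reads in 75% of mice gave 2 members for A14:A8 and 14 double CSS values. Without interaction terms 5 main effects and 1 for chromosome 8 passed. DESeq2, a single adjustment over all genes and edgeR's newer fit kept 25 of 25, DESeq2 size factors 23, the refit without the mouse with few Y-linked reads 21, and that without B6 replicate 14 kept 19, with 7 interactions called. Leaving out 1 mouse at a time gave 12 to 17 main effects, 3 to 5 for chromosome 8, 9 to 11 interactions and 2 to 4 for A14:A8. These leave-outs kept the surrogate variables, and those of single CSS and B6 mice, both refits and the model without interaction terms were chosen after seeing the data. The leave-outs of 1 mouse at a time were not run for the joint tests or for the double CSSs against B6. Adjusted Pearson correlations passed for 1 pair in B6, 6 in the single CSS mice, 0 on B6 residuals (7 unadjusted) and 1 without B6 replicate 14, and Spearman correlations for 2, 5, 2 and 1. The cause of these changes was not tested. No paired analysis was possible because the labels give no litter, batch or day shared between mice of different strains.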

Other observations

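Among the double CSSs the extreme strain means of the members fell in a few crosses. A17:A4, with 4 mice, had the highest mean of Nqo1 (10.4 ± 0.437 CPM, SD) and Srxn1 (47.9 ± 6.30 CPM). Its Osgin1 mean of 38.6 ± 35.4 CPM, beside 38.4 ± 17.5 CPM in A17:A8, rested on replicate 3 at 90.95 CPM and was 21.2 ± 7.52 CPM in the other 3 mice. A3:A5, with 5 mice, had the highest Gclm (232.4 ± 19.3 CPM) and Cat (3205 ± 488 CPM) and the lowest Hmox1 (13.05 ± 1.84 CPM) and Srxn1 (33.0 ± 3.39 CPM). Txnrd1 was highest in A14:A10 (101 ± 5.00 CPM) and lowest in A14:A8 (82.7 ± 3.50 CPM), and Cat was lowest in A14:A4 (2196 ± 363 CPM). G6pdx lay between 2.66 and 3.80 CPM in all 15 crosses. These means were picked for being extreme and were not tested against each other.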
